A study of Mus musculus with 12 samples.

Results

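The 86743 FAIRE peaks described here are the accessible chromatin sites listed for livers of chow-fed Control mice and of mice after vertical sleeve gastrectomy (VSG, 44539 peaks), out of 139624 peaks in the lists of the 3 groups. Both whole lists were taken, and a peak was counted as shared when it overlapped a peak of the other list by at least 1 bp, as gained when it lay in the VSG list alone, and as lost when it lay in the Control list alone. FAIRE (Formaldehyde-Assisted Isolation of Regulatory Elements) recovers DNA that is poorly crosslinked to nucleosomes, so that it is enriched at accessible promoters and enhancers. RNA was sequenced from the same livers. Each group held 2 C57BL/6J wild-type male mice per assay. Control mice ate normal chow for 28 weeks and had no surgery. VSG mice ate a high-fat diet (60 kcal% fat) from 8 weeks of age, for 14 weeks before and 14 weeks after removal of about 80% of the stomach, with 4 days of liquid diet after the operation. Sham mice had the same diet and a sham operation. They serve here to locate a change, and in RNA they also enter the estimate of the spread between mice. Diet and surgery both differ between VSG and Control mice, and their effects cannot be told apart in this comparison.

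Enhancers and promoters of hepatocytes open when transcription factors such as FOXA, HNF4A and C/EBP family members bind, and nuclear receptors, CAR and PXR among them, adjust these sites to nutrients, bile acids and foreign compounds. A high-fat diet loads hepatocytes with lipid and changes the genes of lipid storage, fatty acid oxidation and the acute phase response. Sleeve gastrectomy reduces the stomach to a narrow tube and changes food intake, bile acids and gut hormones.

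Each FAIRE list combines its 2 mice by IDR, which keeps the peaks that rank alike in both, so there is no value per mouse, no error between mice and no test between groups for any count of peaks below. Depth was not known for any list, and the median signal differed (0.252 in Control, 0.298 in VSG and 0.398 in Sham mice). Signal, the density estimate of F-seq, was therefore compared only as a rank within a list, as a percentile from 0 for the weakest to 100 for the strongest peak. In RNA, 6 of the 8 hepatocyte markers had a value. Their summed FPKM (fragments per transcript length and library size) was 13716 to 16941 in Control, 8780 to 13868 in Sham and 10759 to 15624 in VSG mice, as in liver. A 0 in this table need not mean absence of RNA: Apob, the apolipoprotein of VLDL and LDL that hepatocytes secrete, had 0 in one Sham mouse and 231 in the other.

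Positions are 1-based in mm9 (NCBIM37), and the sequences shown are the mm9 plus strand, up to 300 bases of the longest stretch of a peak without an annotated exon. They are the first peak of each kind by signal or rank shift, except that the second largest fall in rank is shown, together with the Tat and Saa1 peaks, which were chosen after their values were seen. Capitals mark matches to the motifs listed further on that at most 20% of promoters hold. The 2 gained peaks lay at the Anxa2 start site (chr9:69301240-69301426, AP-1 and CTCF letters) and in an intron of Slc5a6 (chr5:31339592-31339741, no match).
Anxa2, gained: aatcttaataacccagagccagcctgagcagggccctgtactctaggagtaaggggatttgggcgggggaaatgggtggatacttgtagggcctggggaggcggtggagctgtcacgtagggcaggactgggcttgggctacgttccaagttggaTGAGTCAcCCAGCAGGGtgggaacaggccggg
Slc5a6, gained: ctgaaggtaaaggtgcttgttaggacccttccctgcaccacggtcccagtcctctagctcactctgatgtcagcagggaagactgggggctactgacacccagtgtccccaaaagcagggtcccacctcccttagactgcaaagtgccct
The lost peaks lay upstream of Hamp (chr7:31729124-31729423, with AP-1 letters and 2 STAT matches), in an intron of Tacc2 (chr7:137736959-137737224, no match), at Tat (chr8:112511553-112511852, STAT letters) and at the Saa1 promoter (chr7:53998366-53998665, a nuclear receptor hexamer and HNF6 letters).
Hamp, lost: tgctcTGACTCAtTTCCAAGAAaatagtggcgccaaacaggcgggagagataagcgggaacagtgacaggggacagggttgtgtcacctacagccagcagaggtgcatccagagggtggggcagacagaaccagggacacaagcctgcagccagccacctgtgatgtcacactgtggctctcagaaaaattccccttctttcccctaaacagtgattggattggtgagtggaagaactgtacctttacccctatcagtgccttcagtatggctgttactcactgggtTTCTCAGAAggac
Tacc2, lost: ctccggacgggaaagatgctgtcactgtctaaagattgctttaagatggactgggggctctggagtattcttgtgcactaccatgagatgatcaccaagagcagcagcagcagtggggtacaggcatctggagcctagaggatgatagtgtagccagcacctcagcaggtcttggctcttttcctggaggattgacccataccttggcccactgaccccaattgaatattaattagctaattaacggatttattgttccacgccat
Tat, lost: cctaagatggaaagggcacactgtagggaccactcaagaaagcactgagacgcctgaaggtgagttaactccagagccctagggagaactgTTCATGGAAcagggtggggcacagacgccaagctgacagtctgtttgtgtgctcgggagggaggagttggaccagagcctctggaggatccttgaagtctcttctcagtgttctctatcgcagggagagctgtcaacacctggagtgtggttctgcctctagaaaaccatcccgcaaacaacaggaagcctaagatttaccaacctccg
Saa1, lost: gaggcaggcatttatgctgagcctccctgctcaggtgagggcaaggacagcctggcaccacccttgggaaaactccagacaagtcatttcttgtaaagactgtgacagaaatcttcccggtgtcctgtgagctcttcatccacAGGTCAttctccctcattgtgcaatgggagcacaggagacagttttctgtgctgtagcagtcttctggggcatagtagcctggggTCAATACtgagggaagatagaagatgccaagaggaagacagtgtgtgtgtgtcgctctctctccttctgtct
Among shared peaks, the largest rise in rank was in an intron of Abcg5 (chr17:85052972-85053257). It matched the letters listed further on under the name C/EBP, which need not mark a C/EBP site. The fall shown was in an intron near Farp1 (chr14:121651058-121651252, STAT and FOXA letters).
Abcg5, ranking higher in VSG: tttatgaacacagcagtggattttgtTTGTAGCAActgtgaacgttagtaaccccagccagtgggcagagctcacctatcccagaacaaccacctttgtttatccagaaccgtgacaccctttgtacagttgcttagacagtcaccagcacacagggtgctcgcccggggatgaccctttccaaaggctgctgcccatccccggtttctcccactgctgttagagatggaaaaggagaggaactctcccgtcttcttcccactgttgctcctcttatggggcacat
Farp1, ranking lower in VSG: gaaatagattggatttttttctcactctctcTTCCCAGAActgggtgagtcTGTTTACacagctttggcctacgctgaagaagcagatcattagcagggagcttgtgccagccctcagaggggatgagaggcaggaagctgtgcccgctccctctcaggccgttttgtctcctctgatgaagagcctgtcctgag

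The first question was how far the accessible sites of VSG mice depart from those of chow-fed mice. Of the VSG peaks 8506 (19.1%) were gained, and of the Control peaks 6408 (15.2%) were lost. When the VSG list was cut to its highest-signal peaks so that both lists had the length of the Control list, 7155 (16.95%) were gained and 7308 (17.3%) were lost, so the excess of gains was not present with lists of equal size. The VSG peaks just inside and just outside this limit both had a signal of 0.1644. Measured in bases, 77.9% of the sequence under Control peaks and 80.3% of that under VSG peaks lay in shared sequence. Gained peaks made up 12.4% of the VSG bases and lost peaks 9.39% of the Control bases.

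Most sites that changed lists were weak. Gained peaks had a median percentile of 18.3 and lost peaks of 15.4, and 63.5% and 71.9% of them lay in the lowest 25% of their list. Of the 10 equal bins of signal in the VSG list, the lowest had 55.8% of its peaks gained, the fifth 15.4% and the highest 0. In the Control list the corresponding shares of lost peaks were 52.8%, 8.80% and 0. Only 5 gained and 5 lost peaks lay in the top 25%. Both classes were shorter than the lists they came from, with medians of 236 bp (gained) and 226 bp (lost), against 324 bp for all VSG and 344 bp for all Control peaks. Many lost peaks adjoined a site that remained, since 36.05% of lost and 20.8% of gained peaks lay within 1000 bp of a peak of the other list.

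**Figure D1:**
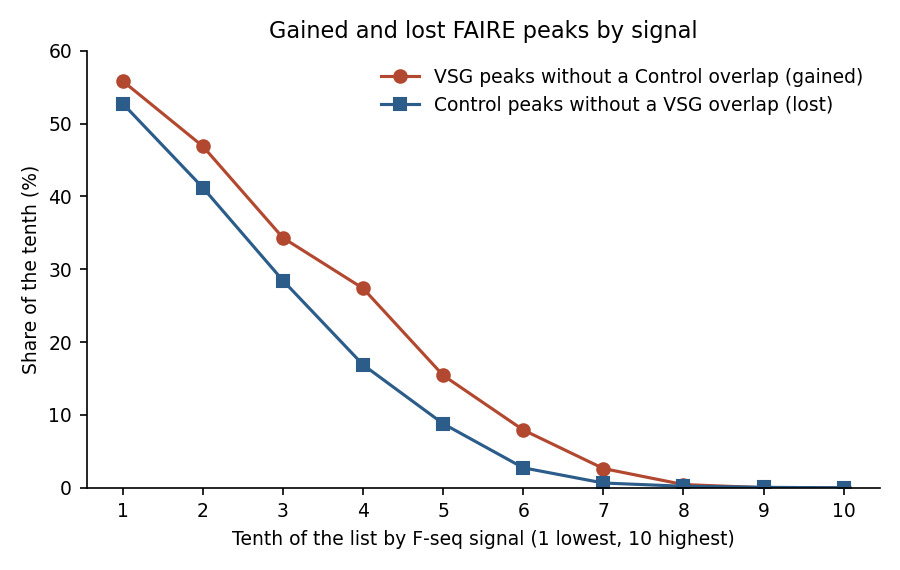
Percent of VSG peaks that were gained and of Control peaks that were lost (vertical axis), by 10 equal bins of signal within each list from weakest to strongest (horizontal axis), 1 list of 2 mice per group. Both shares are lower in every stronger bin, from 55.8% and 52.8% in the weakest to 0 in the strongest.

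The Sham list shows whether a site that differed between VSG and Control was also accessible in operated mice on high-fat diet with an intact stomach. A Sham peak overlapped 73.4% of the gained peaks (6244, Wilson 95% interval 72.5 to 74.3%, counting error only) and 50.8% of the lost peaks (3258, interval 49.6 to 52.1%). Most sites gained relative to chow were thus also listed after the sham operation, while 3150 of the lost sites were missing from the Sham list as well. Among shared peaks the Sham share was 94.4%. In the lowest 25% of signal it was 64.7% for gained, 45.1% for lost, and 77.8% and 82.1% for shared VSG and Control peaks. The Sham list is the longest, with 52881 peaks, and with all lists cut to the length of the Control list the shares were 61.1% of the gained and 34.1% of the lost sites.

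Gained and lost sites lay away from promoters more often than shared ones. Within 1000 bp of a transcription start site (TSS) lay 1420 gained peaks (16.7%, interval 15.9 to 17.5%) and 1378 lost peaks (21.5%, interval 20.5 to 22.5%), against 38.8% of shared VSG peaks. The order of gained and lost was the opposite in the highest-signal 50% of each list, with 23.9% and 19.1%. In the lowest 25% of signal, where shared peaks are also weak, the promoter share was 17.9% for gained, 22.5% for lost, and 23.9% and 24.1% for shared VSG and Control peaks. Seen from the place, 9.23% of VSG promoter peaks, 25.6% of intronic and 23.4% of intergenic peaks were gained. The corresponding lost shares of Control peaks were 9.04%, 19.8% and 17.2%. Across the autosomes 15.5 to 22.6% of VSG peaks were gained and 14.0 to 16.3% of Control peaks lost. Chromosome X had the largest ratio of gained to lost peaks, 3.21, with 106 of 495 VSG peaks gained and 33 of 423 Control peaks lost. At equal list sizes chromosome X gave 85 gained and 40 lost peaks. On chromosome Y 7 peaks were gained and 6 lost.

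Within the sites that both lists held, accessibility was compared by rank. The 33662 peaks that matched 1-to-1 had a Spearman correlation of 0.844 between their Control and VSG percentiles, given as a description across sites of the same libraries. At least 25 percentile points higher in VSG were 2534 (7.53%) and at least 25 points lower 1895 (5.63%). The order of these counts depended on the length of the lists, since with lists of equal length 2122 ranked higher and 2269 lower, and with ranks among shared peaks alone 2216 and 2089. The pairs ranking higher moved from a median percentile of 17.5 in Control to 56.0 in VSG, and their Sham median was 60.5. The pairs ranking lower moved from 51.7 to 16.4, with a Sham median of 41.0. The Sham percentile was nearer to VSG than to Control for 81.7% of the pairs ranking higher and 39.0% of those ranking lower. Over all pairs with a Sham match this share was 53.0%. Their median percentile was 66.7 in Sham, 58.9 in Control and 60.7 in VSG. A Sham rank that runs high lies nearer to VSG in rising pairs and nearer to Control in falling pairs. Because the percentile stops at 100, the strongest pairs cannot move upward by 25 points, so shares of shifted pairs were not compared between strong and weak sites or between promoters and other places. Pairs just inside and just outside the limit shifted by 25.01 and 24.99 points upward.

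The strongest gained sites included promoters of genes of several kinds, and the Sham list held a peak at every one of the 10 gained and 10 lost sites that the rule of highest signal named. At the start of Anxa2, a calcium-dependent membrane-binding annexin that hepatocytes make little of, a VSG peak (chr9:69301240-69301635) had a signal of 0.486, percentile 73.3, and a Sham peak stood at percentile 71.8. The remaining gained promoters belonged to Med24 (a Mediator subunit, percentile 70.9), Camk2b (a calmodulin-dependent kinase, 70.1), Ppp5c (a protein phosphatase, 69.3) and Ubr3 (a ubiquitin ligase, 64.8). Away from promoters the strongest gained site lay in an intron 1036 bp from the start of Slc5a6, the sodium-dependent multivitamin transporter (chr5:31338921-31339741, signal 0.620, percentile 81.7, Sham percentile 94.9). It was followed by sites nearest to Serpina10 (a serpin secreted by liver, percentile 77.4), Gm14268 (77.0), Tpmt (thiopurine methyltransferase, 76.2) and D730003I15Rik (75.5).

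The strongest lost promoter was that of Hamp, which encodes hepcidin, the hormone that lowers iron export into blood. Its Control peak (chr7:31728999-31729511, 219 bp upstream of the TSS) had a signal of 0.454, percentile 80.0, and the Sham peak stood at percentile 60.5. A second lost peak lay 1653 bp upstream (chr7:31730412-31730965, percentile 76.7), in an exon of the annotation. A copy of the promoter peak with 93.0% identity lies on the same chromosome at 31709148, and one of the second peak with 95.3% identity over 91.7% of its length. The part of these copies in the peaks was not tested. The remaining lost promoters were Gm10612 (percentile 64.3), As3mt, the arsenite methyltransferase (61.5), Saa1, an acute phase apolipoprotein (61.3), and Hrg, histidine-rich glycoprotein of plasma (60.3). The Saa1 peak had a copy of 94.3% identity over 90.0% of its length. Distal lost sites lay nearest to Tacc2 (a centrosomal coiled-coil protein, percentile 80.8), Id3 (an inhibitor of basic helix-loop-helix factors, 80.6), Spin1 (a histone methylation reader, 76.1) and E130114P18Rik (73.6).

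The largest rise in rank among shared peaks was at an intronic site 20595 bp from the start of Abcg5, a subunit of the transporter that exports sterols into bile. It stood at percentile 7.69 in Control, 53.3 in Sham and 83.7 after VSG. Next came sites nearest to Lncenc1 (75.8 points higher), Tmem108 (75.2), Ppp1r3c, a glycogen-targeting subunit of protein phosphatase (74.8), and Gm5114 (74.5), the last with a copy elsewhere on its chromosome. The largest falls were nearest to Onecut2, a liver transcription factor (percentile 76.1 in Control and 0.359 in VSG), and to Farp1 (83.3 and 8.63). The falls nearest to Mrtfa (a coactivator of serum response factor), Parp16 and Spin1 followed, at −68.9, −66.6 and −66.1 points. The Spin1 neighbourhood thus held both a lost and a falling site.

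**Figure D2:**
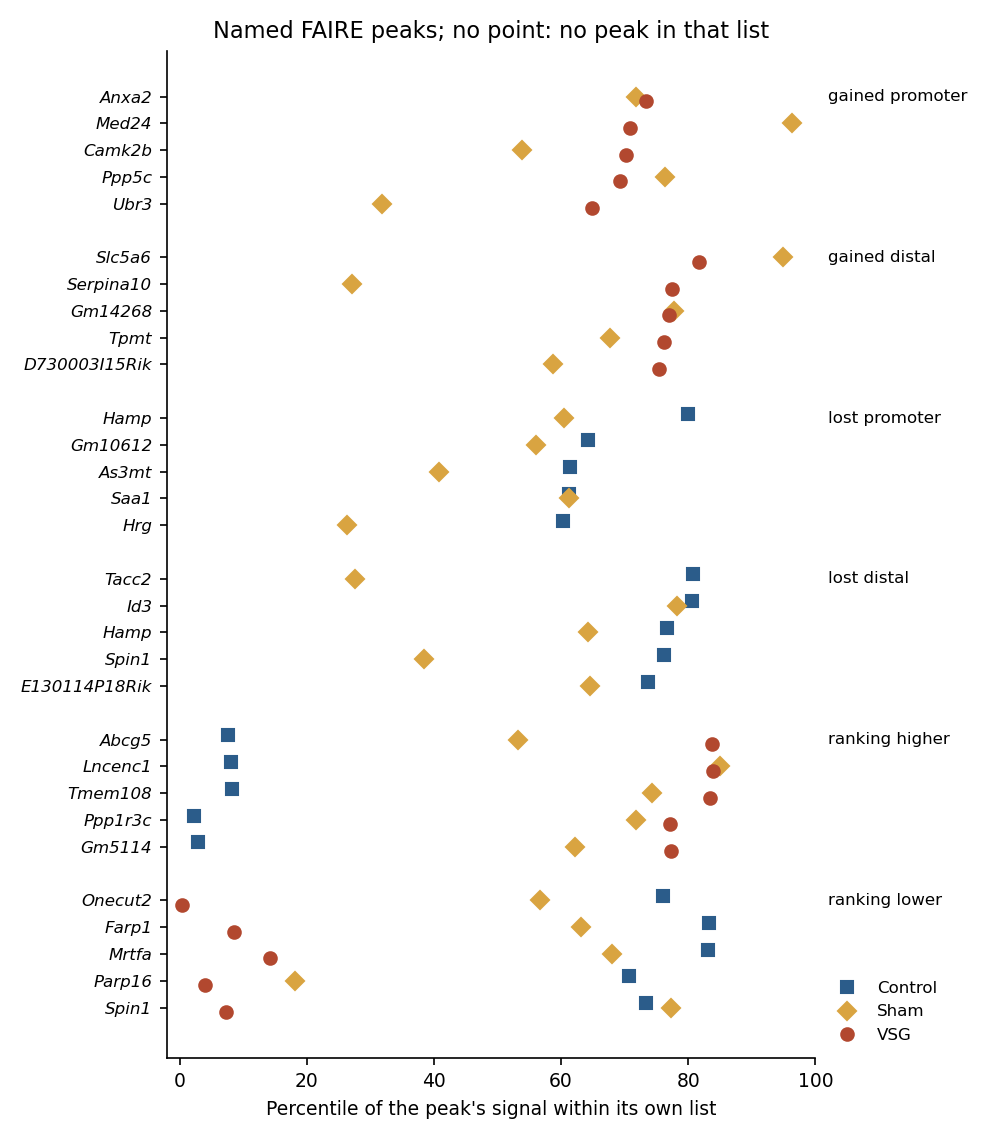
Percentile of signal within its own list (horizontal axis) of each named FAIRE peak in Control, Sham and VSG mice; 1 list per group, no point where a list holds no overlapping peak. Gained sites lack a Control point, lost sites lack a VSG point, and all have a Sham point.

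Short sequences differed between the classes. Each of 16 motifs was sought on both strands of the central 200 bp of every peak, and a match is a description of letters, not of a bound site. Their names and letters are FOXA (TGTTTAC), C/EBP (TTGCNNCAA), AP-1 (TGANTCA), STAT (TTCNNNGAA), ETS (CCGGAAG), NRF1 (CGCATGCG), E-box (CACGTG), CTCF (CCANNAGGG), the GC box of SP and KLF factors (GGGGCGGG), NF-Y (CCAATNN), NF-kB (GGGNNNNCC), the D-box of DBP and NFIL3 (TTATGNAA), HNF6 (TCAATAN) and the nuclear receptor hexamer (AGGTCA). The direct repeats DR1 (PPAR or HNF4A) and DR4 (LXR) were 2 copies of AGGTCA separated by 1 and by 4 bases, so that each match to them also counts for the hexamer.

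The nuclear receptor hexamer had the largest difference in percentage points, at 29.7% of gained (interval 28.7 to 30.7%), 18.5% of lost (17.6 to 19.5%) and 20.2% of shared peaks. Away from promoters the shares were 32.5%, 19.8% and 25.9%, and in the lowest 25% of signal 26.9% of gained and 18.5% of lost peaks held it. The hexamer was found in 10.3% of all 69965 promoter windows of the same length. Gained peaks also held more AP-1 letters (9.44%, against 6.01% of lost and 6.43% of shared peaks, promoter windows 4.60%) and more FOXA letters (5.23%, 2.39% and 3.42%, promoter windows 2.07%). The D-box, bound by clock-controlled factors, was in 3.89% of gained, 1.59% of lost and 2.10% of shared peaks (promoter windows 2.002%). The E-box stood at 5.91% of gained and 3.82% of lost peaks, with 6.37% of shared peaks and 5.37% of promoter windows.

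Lost peaks held more CTCF letters, at 9.97% (interval 9.26 to 10.7%), against 5.41% of gained and 7.46% of shared peaks (promoter windows 3.99%). STAT letters were in 6.26% of lost and 5.08% of gained peaks, with 5.11% of shared peaks and 5.12% of promoter windows. The letters searched under the name NF-kB, which are common, were in 32.6% of lost, 27.5% of gained and 37.0% of shared peaks (promoter windows 36.7%). They miss many NF-kB sites, so these shares cannot be read as shares of such sites. Letters typical of strong promoters were rarer in both classes than in all shared peaks, which are stronger and lie at promoters more often. ETS letters were in 2.37% of gained, 2.08% of lost and 5.84% of shared peaks (promoter windows 8.14%). The GC box was in 3.35%, 2.37% and 8.49% (promoter windows 16.3%), and NRF1 in 0.188%, 0.218% and 0.996% (promoter windows 1.72%). NF-Y letters were in 23.4% of gained, 21.4% of lost and 23.9% of shared peaks (promoter windows 27.3%). HNF6 (5.50%, 5.29% and 3.90%, promoter windows 4.36%) and C/EBP (1.42%, 1.54% and 1.42%, promoter windows 1.32%) differed less between gained and lost peaks. The letters searched under the name C/EBP miss the palindrome that these factors bind. The C/EBP shares therefore cannot be read as shares of C/EBP sites. The repeats DR1 (16 gained and 10 lost peaks, promoter windows 0.0343%) and DR4 (3 and 1, promoter windows 0.00715%) were too rare to compare. Among shared pairs that changed rank the hexamer was in 29.6% of those ranking higher and 18.8% of those ranking lower, AP-1 letters in 9.35% and 6.23%, and CTCF letters in 5.37% and 12.1%. HNF6 letters were in 4.10% and 6.65%, an order that gained and lost peaks did not have.

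The comparison with shared peaks depended on the window, while the order of gained and lost peaks was kept except for DR1, C/EBP and NRF1. Over whole peaks, which are longer in the shared class, the hexamer was in 34.3% of gained, 23.3% of lost and 33.3% of shared peaks, AP-1 letters in 11.8%, 8.01% and 11.6%, and FOXA letters in 6.30%, 3.09% and 6.07%. CTCF letters were then in 7.37% of gained, 12.3% of lost and 13.3% of shared peaks, and STAT letters in 6.90%, 8.61% and 10.8%. In the lowest 25% of signal, CTCF letters were in 9.66% of lost and 7.57% of shared Control peaks. They were in 5.83% of gained and 10.5% of shared VSG peaks there. STAT letters were in 5.64% of lost and 5.20% of gained peaks of the lowest 25%. For promoter letters the gap to shared peaks was smaller there. ETS letters were in 2.46% of gained and 2.79% of shared VSG peaks, and in 2.21% of lost and 3.03% of shared Control peaks. The GC box was in 3.72% of gained and 3.76% of shared VSG peaks, and in 2.39% of lost and 4.19% of shared Control peaks.

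**Figure D3:**
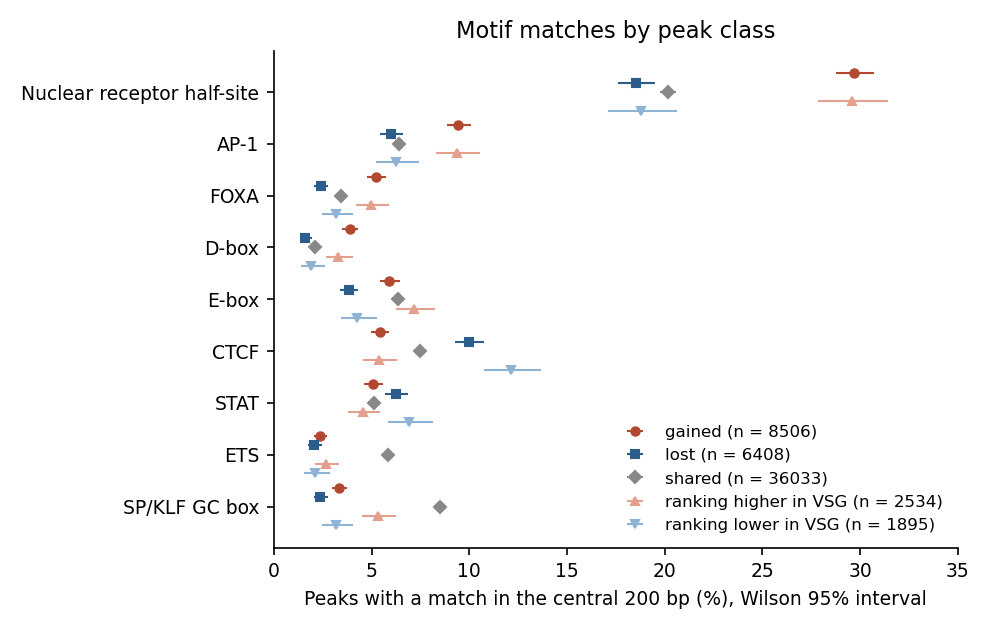
Percent of gained, lost and shared FAIRE peaks whose central 200 bp hold each motif (horizontal axis), with Wilson 95% intervals for counting error. The nuclear receptor hexamer, AP-1, FOXA and D-box letters are more frequent in gained than lost peaks, and CTCF and STAT letters in lost than gained peaks.

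Groups of liver genes were compared by the peaks assigned to them by nearest TSS within 100 kb, where 18.5% of VSG peaks around any gene were gained and 15.1% of Control peaks lost. Among pathway lists, losses were most frequent around acute phase protein genes, which the liver secretes in inflammation, with 31 of 92 Control peaks lost (33.7%) and 18 of 80 VSG peaks gained. Itih4 lost 6, Saa1 and Serpina3n lost 4 each, and Fga both gained and lost 2. Around hepatocyte markers 21 of 64 were lost (32.8%), 9 of them at Tat. Around liver transcription factors 49 of 206 were lost (23.8%) and 23 of 182 gained (12.6%), with Cux2 losing 7, Prox1 losing 5 and gaining 1, and Rxra gaining 6 and losing 4. Around oxidative stress and Nrf2 targets 13 of 58 were lost (22.4%), 6 of them at Mt1. Around genes of fatty acid oxidation and ketogenesis 22 of 110 were lost and 15 of 106 gained. In that list Ppara, the nuclear receptor that turns on fatty acid oxidation, gained 4 and lost 9 peaks, Bdh1 gained 5 and lost 2, Cpt1a, which carries fatty acids into mitochondria, lost 3, and Cyp4a10 gained 1 and lost 2.

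Around some other groups the gained share lay above the 18.5% around all genes, though by few peaks. The shares in this paragraph rest on small numbers and have no test. Around genes of cholesterol synthesis and uptake 19 of 72 VSG peaks were gained (26.4%), led by Insig2 with 5 and Sc5d with 4. Of their Control peaks 12 of 65 were lost (18.5%), also above the 15.1% around all genes. Around targets of CAR and PXR 17 of 69 were gained (24.6%) and 5 of 56 lost (8.93%). Cyp3a25 and Abcc3 gained 3 peaks each there, and Cyp3a11 gained 2. Losses were below the background around inflammation and chemokine genes (4 of 58 lost, 12 of 65 gained, with Nfkbia gaining 4), immediate early genes (4 of 81 lost, 11 of 88 gained) and chromatin regulators (8 of 89 lost, 18 of 96 gained). Stellate cell and matrix genes had 8 of 23 gained and 2 of 17 lost, which are small numbers. Lipogenesis genes had 22 of 155 gained and 21 of 153 lost, bile acid genes 15 of 79 and 16 of 82, and circadian clock genes 17 of 123 and 19 of 125. Gluconeogenesis and insulin signalling genes had 12 of 105 gained (11.4%) and 17 of 111 lost. Lipid droplet genes had 9 of 46 gained and 8 of 42 lost, and ribosomal proteins and translation factors 5 of 44 and 4 of 41. Pparg gained 4 peaks and lost 0 within the lipid droplet list, Cd36 gained 2, and Cidec lost 3. With lists of equal length, where 16.4% of peaks around any gene were gained and 17.2% lost, acute phase genes had 33 of 92 lost, cholesterol genes 17 of 70 gained and CAR and PXR targets 14 of 64 gained.

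**Figure D4:**
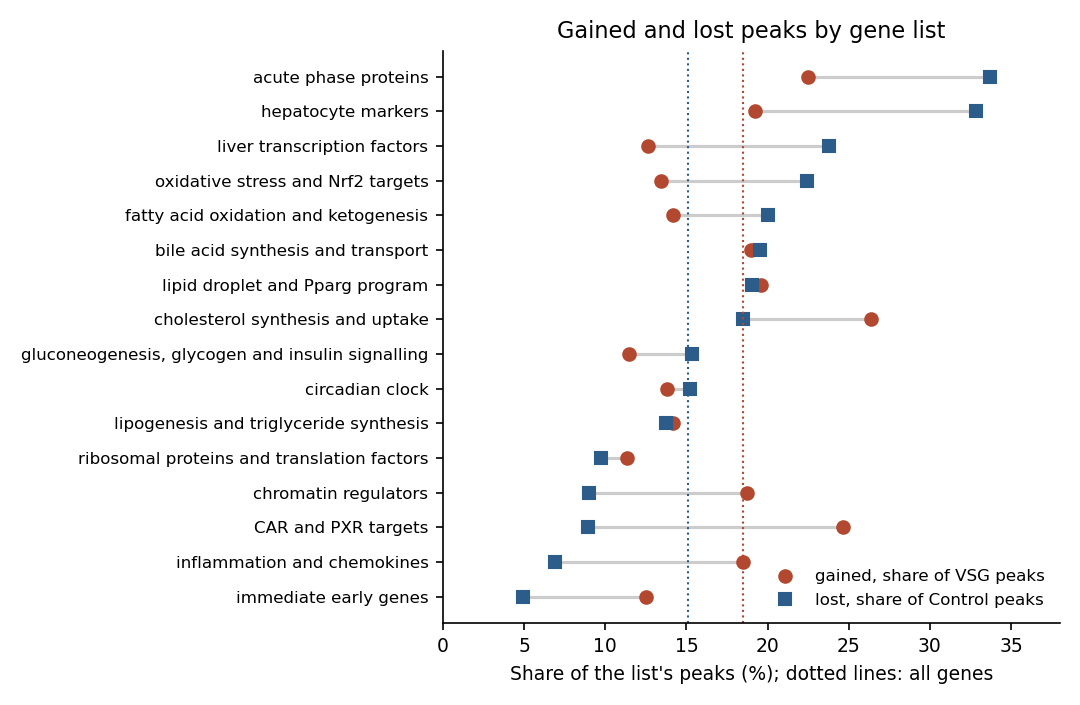
Percent of VSG peaks gained and of Control peaks lost (horizontal axis) around the genes of each list, 1 FAIRE list of 2 mice per group, beside the share around all genes (18.5% gained, 15.1% lost). Acute phase genes and hepatocyte markers have lost shares of 33.7% and 32.8%, above the 15.1% around all genes.

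Some genes held several gained or lost peaks, and those described here were chosen after their counts were seen. The 90 genes with 5 or more gained peaks held 527 of the 8506, and the 80 with 5 or more lost peaks held 508 of the 6408. Of 7839 genes with a gained or lost peak, 3561 had gains alone, 2571 losses alone and 1707 both. Another peak of the same class lay within 5000 bp of 16.8% of gained and 20.8% of lost peaks.

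At 2 genes of hepatocyte metabolism the share of bases under a peak, counted over the gene with 5000 bp on either side, was highest in Control. At Tat, tyrosine aminotransferase (chr8:112509337-112528703), it was 24.8% in Control, 12.8% in Sham and 15.7% after VSG, and none of the 8 lost peaks was in the Sham list. At Ass1, the urea cycle enzyme argininosuccinate synthase (chr2:31320727-31381192), it was 20.7%, 5.23% and 4.42%, with 9 lost peaks. These loci had similar values in both groups on high-fat diet. In a second pattern Sham resembled Control. At Mt1, a metallothionein that binds zinc and copper (chr8:96697989-96709225), the shares were 37.8% in Control, 48.1% in Sham and 17.03% after VSG, and 6 of 7 lost peaks were in the Sham list. Hamp had 9.16%, 11.4% and 0, Scara5, a ferritin receptor, 5.74%, 4.63% and 0.838%, and Itih4 26.6%, 26.8% and 10.2%. At gaining genes the shares were smaller. Anxa2 had 0.793% in Control, 5.48% in Sham and 2.67% after VSG, Pparg, the nuclear receptor of lipid storage, 0.389%, 1.64% and 1.13%, and Cd36, a fatty acid transporter, 0, 0.418% and 0.370%. Cmip, an adaptor protein of signalling, had the most gained peaks by nearest TSS, 13 against 4 lost.

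RNA of the same livers was then set beside the peaks. limma with 3 groups in the fit tested 9769 genes on log2(FPKM + 1), and 28 (0.287%) passed an FDR of 10%, 10 higher (0.102%) and 18 lower (0.184%) in VSG than Control mice. At an unadjusted p under 0.05 stood 686 genes higher (7.02%) and 250 lower (2.56%). The median gene was 0.125 higher in VSG on the log2 scale, and with every mouse centred on its own median the split was 423 higher and 360 lower. The p-values rest on a spread between mice that is pooled over the 3 groups, Sham included, with 2 mice in each. For each gene limma draws this spread toward a trend over all genes. Fewer cells of a type and less RNA per cell cannot be told apart in whole liver.

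Genes near gained and lost peaks differed in the shares that were higher and lower in VSG RNA. Of 1956 tested genes whose TSS was the nearest to a gained peak within 10 kb, 172 were higher (8.79%) and 53 lower (2.71%) at the unadjusted threshold. Of 1822 genes with a lost peak, 100 were higher (5.49%) and 93 lower (5.10%). Genes with shared peaks alone had 6.71% higher and 1.54% lower. Where gains exceeded losses by 3 or more, 23 of 219 genes were higher (10.5%) and 4 lower (1.83%). Where losses exceeded gains by 3 or more, 3 of 143 were higher (2.10%) and 16 lower (11.2%). These last genes had a median Control FPKM of 17.3, against 5.49 for all genes tested. Among genes with 20 or more peaks, 4.08% were higher and 7.07% lower. Single mice moved these counts by more than 1.5 times. Without VSG mouse 2, 111 of 1904 genes near gained and 140 of 1787 near lost peaks were lower, as were 5.27% of all genes, and of the genes with a net gain 15 were lower and 13 higher, which turned their order. Without Control mouse 1 or 2, 97 and 89 genes near gained peaks were higher and 52 and 40 near lost peaks lower.

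At an FDR of 10%, 3 genes near gained peaks were higher and 2 lower in VSG, and near lost peaks 0 were higher and 3 lower, with Tat near both. Tat had an FPKM of 1376 and 1477 in Control, 210 and 188 in Sham, and 233 and 283 after VSG. It fell by 2.47 on the log2 scale (standard error 0.24, limma adjusted p = 0.0676), and all VSG and Sham mice lay below both Control mice. Over the other fits its adjusted p ranged from 0.0602 to 0.650. Cyp2b10, a CAR target that oxidises drugs, had 8.46 and 8.81 in Control and was listed at 0.135 and 0 in VSG mice (limma adjusted p = 0.0281, range 0.0277 to 0.190). That range lacks the fits without a Control mouse, in which Cyp2b10 fell below the FPKM filter. The Tat range includes those fits, so the 2 ranges cannot be set against each other. The lost Cyp2b10 peak, at percentile 36.8, lay 71 bp upstream of its TSS. The remaining calls rest on an FPKM listed at 0 in both mice of a group. Spryd4 was listed at 0 in both Control mice and at 21.5 and 23.7 in VSG mice, Lifr, the leukaemia inhibitory factor receptor, at 0 and at 7.05 and 7.45, and Cyp3a25, a drug-metabolising P450, at 0 and at 114 and 724. The paper counts Cyp3a25 among Cyp genes that were lower in Sham than in Control mice. A value of 0 in both Control mice cannot show that direction. Sgms2, a sphingomyelin synthase, was listed at 5.25 and 4.39 in Control and Setd1a, a histone methyltransferase, at 4.65 and 6.50, and both at 0 in the VSG mice. Without either Control mouse limma called 0 genes in all, with 389 higher and 128 lower at an unadjusted p under 0.05 without mouse 1 and 359 and 101 without mouse 2. The called genes are thus a mixture of 1 gene measured in every mouse and 6 with a 0 in at least 1.

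Several genes with many lost peaks, and Hamp with 2 of its 2 Control peaks lost, had lower RNA values in VSG mice. None of them passed the FDR apart from Tat. Hamp had 2052 and 2407 in Control, 1253 and 718 in Sham and 99.7 and 4.74 after VSG (limma log2 difference −6.53, standard error 1.35, adjusted p = 0.332). The 2 VSG mice differed from each other by more than the Control mice did, and both lay below every other mouse. Mt1 had 4506 and 5629 in Control, 2826 and 3221 in Sham and 870 and 555 after VSG (−2.86, standard error 0.36, adjusted p = 0.131). Ass1 had 1309 and 1302, 300.3 and 256, and 334 and 545 (−1.61, standard error 0.32, adjusted p = 0.323). For Ass1 the Sham and VSG ranges lay together below Control, while for Hamp and Mt1 the Sham mice lay between. Scara5 had 20.3 and 23.4 in Control, 8.05 and 18.5 in Sham, and 5.37 and 1.76 after VSG. Loss of peaks did not always go with lower RNA. Scp2, a sterol carrier protein of peroxisomes, lost 10 peaks by nearest TSS and had 830 and 790.4 in Control against 1818 and 1078 in VSG mice. Itih4 had 1013 and 1261 against 1372 and 1369.

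Genes with gained peaks that had higher values in both VSG mice included lipid genes. Anxa2 had 3.56 and 2.93 in Control, 18.9 and 23.9 in Sham, and 31.3 and 13.0 after VSG (limma log2 difference 2.33, standard error 0.44, adjusted p = 0.299). Cd36 had 6.73 and 6.48, 22.5 and 23.3, and 20.3 and 25.2 (1.63, standard error 0.21, adjusted p = 0.131). Bdh1, which makes the ketone body beta-hydroxybutyrate, had 46.1 and 32.6, 107 and 62.7, and 130.3 and 127 (1.70, standard error 0.34, adjusted p = 0.322). In all 3 genes the VSG and Control mice did not overlap and the Sham mice lay above Control. Ppp1r3c, nearest to one of the peaks that rose most in rank, had 4.21 and 1.80 in Control, 7.24 and 4.96 in Sham and 13.5 and 11.9 after VSG (1.84, adjusted p = 0.332, limma). Abcg5, with the largest rise in rank, had 25.4 and 28.1 in Control and 13.2 and 66.5 in VSG mice, which overlap. Pparg had 2.34 and 3.50 in Control, 11.1 and 2.58 in Sham, and 6.75 and 8.73 after VSG. Gain of peaks did not always go with higher RNA. Cholesterol genes, with 26.4% of VSG peaks gained, had a median log2 difference of −0.768, against 0.125 over all genes tested. CAR and PXR targets, with 24.6% gained, had a median of −0.419. Stellate cell and matrix genes, with 34.8% gained, had a median of 0.279.

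**Figure D5:**
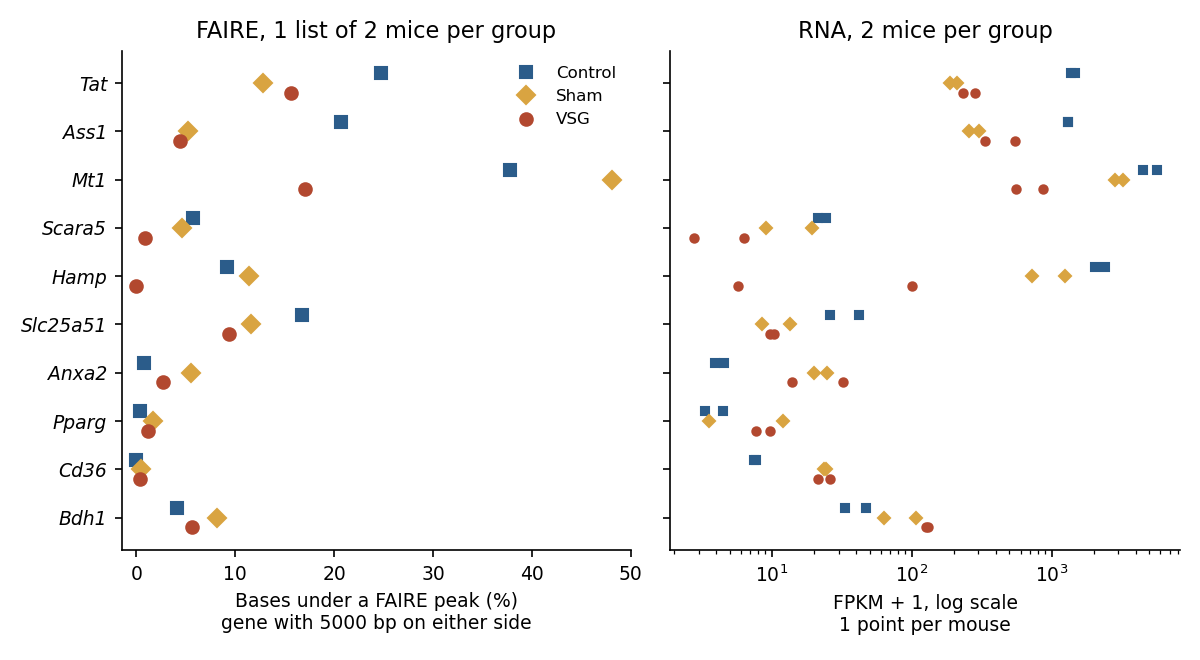
Left, percent of bases under a FAIRE peak over each gene with 5000 bp on either side, 1 list of 2 mice per group; right, FPKM + 1 of the same genes on a log axis, 1 point per mouse. Tat and Ass1 are highest in Control in both panels, and for Hamp and Mt1 the VSG mice are lowest in both.

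Among the RNA values of the gene lists, counts at the unadjusted threshold were small and FDR calls fewer. Beside them, 7.02% of all genes were higher and 2.56% lower, or 4.33% and 3.69% with median-centred mice. Of lipogenic genes 4 of 18 tested were lower and 0 higher. They included Lpin1, a phosphatidate phosphatase (91.9 and 129 in Control, 13.4 and 5.95 in VSG mice), and Elovl6, a fatty acid elongase (15.4 and 15.1 against 4.05 and 3.68), which lost 5 peaks. Of acute phase genes 3 of 15 were lower and 2 higher, of fatty acid oxidation genes 2 of 18 lower and 1 higher, and of oxidative stress genes 3 of 14 lower and 2 higher. Of bile acid genes 4 of 19 were higher and 0 lower. Of CAR and PXR targets 2 of 19 were higher and 2 lower, and Cyp3a11 had 1603 and 1293 in Control, 48.6 and 7.32 in Sham and 100.1 and 828 after VSG. Cholesterol genes (2 of 19 lower, 0 higher), immediate early genes (3 of 13 lower, 0 higher) and gluconeogenesis genes (3 of 20 higher, 1 lower) also had few.

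Markers of some other cell types differed between the groups. The summed FPKM of 7 Kupffer cell markers was 11.9 to 17.5 in Control, 35.5 to 38.8 in Sham and 37.2 to 148 after VSG, and 3 of 7 were higher in VSG than Control mice at the unadjusted threshold, against 7.02% of all genes. Neutrophil markers summed to 4.91 to 12.4 in Control, 40.6 to 44.9 in Sham and 16.3 to 21.2 after VSG, and markers of recruited macrophages to 0.763 to 0.818, 5.72 to 10.7 and 3.65 to 4.77. Lymphocyte markers summed to 0.942 to 0.959, 1.60 to 2.56 and 1.33 to 3.06, and stellate markers to 16.0 to 16.2, 6.31 to 8.08 and 17.1 to 27.6. In these 5 lists the Control and VSG ranges did not overlap. Some of the sums rest on very low values. Only 1 of 6 recruited macrophage, 2 of 5 neutrophil and 0 of 6 lymphocyte markers passed the FPKM filter for a test. They overlapped for sinusoidal endothelial markers (14.7 to 37.8 in Control, 3.42 to 6.18 in Sham, 21.1 to 24.1 after VSG), cholangiocyte markers (30.7 to 32.7, 62.9 to 186, 30.9 to 145) and adipocyte-like lipid storage markers (15.8 to 72.8, 72.2 to 122, 41.7 to 149). No marker with an RNA value was at 0 in every mouse, and the part of these cells in the gained and lost peaks was not tested. Few peaks lay at their marker genes, so their shares cannot be read against the 18.5% gained and 15.1% lost around all genes. Of VSG peaks 0 of 1 was gained at Kupffer, 2 of 7 at recruited macrophage, 0 of 1 at neutrophil and 1 of 1 at lymphocyte markers. At sinusoidal endothelial markers 5 of 17 were gained, at stellate 3 of 7, at cholangiocyte 1 of 5 and at adipocyte-like markers 1 of 12. Of Control peaks 6 of 15 were lost at adipocyte-like, 2 of 14 at sinusoidal endothelial, 1 of 5 at stellate, 1 of 6 at recruited macrophage and 1 of 2 at Kupffer markers, and 0 at lymphocyte, neutrophil and cholangiocyte markers.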

How the data were processed

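FAIRE-seq and RNA-seq were measured in livers of 2 Control, 2 Sham and 2 VSG mice. The authors aligned FAIRE reads to mm9 with Bowtie, called peaks with F-seq and kept those reproducible in both mice by IDR. The deposited signal of a peak is the F-seq density, and depth is unknown. For RNA, the authors used TopHat2 and Cufflinks, and deposited an FPKM for each RefSeq transcript and mouse on mm9. The labels give poly(A) enrichment for the RNA, whereas the methods give depletion of ribosomal RNA. Comparison tables of the authors (DESeq2 fold changes and p-values) and their site lists were not used.

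From these files, peaks were intersected with Python 3.11.15, numpy 2.4.6, pandas 2.3.3 and pysam 0.24.0, placed by the GENCODE annotation of NCBIM37, and compared with other genomic sequence by BLAST 2.17.0 (at least 95% identity over at least 80% of the length, and best match otherwise). Of 34933 transcript identifiers 34610 (99.1%) found a gene, and FPKM was summed over the transcripts of 24071 genes, in which 566 duplicated identifiers were kept. Genes reaching an FPKM of 1 in 2 or more mice were fitted with limma 3.58.1 in R 4.3.3 on log2(FPKM + 1), with a trend in the variance and Benjamini-Hochberg adjustment over all genes of the comparison. A log2 difference on this scale understates the change of low genes. The scripts were tested on simulated data. The members, the 25 gene lists and the motifs were chosen with earlier results of these data known. Named sites are the 5 gained and 5 lost peaks of highest signal within 1000 bp of a TSS, the same farther away within 100 kb, the 5 largest rank rises and falls, genes within 10 kb of a changed peak at FDR 10%, and the 4 members of each list with the most changed peaks, of which some are shown. Genes with many gained or lost peaks were chosen after the values were seen. Some genes of the fatty acid oxidation list are not reported here and were left out of it. Alternatives covered the overlap rule, list size, peak length, promoter window, rank limit, motif window and the RNA fit.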

Additional observations from a re-analysis of the deposited data

How the results depend on the processing

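With the highest-signal 50% of each list there were 3907 gained and 2875 lost peaks. The share of gained peaks in the Sham list was 75.5% when peaks within 250 bp counted as shared, 61.1% with lists of equal length, 69.7% with the highest-signal 50% and 76.5% for peaks of at least 250 bp. For lost peaks it was 54.8%, 34.1%, 45.9% and 55.7%, below the gained share in each. The promoter share was 11.4% of gained and 13.3% of lost peaks at 500 bp, 25.4% and 32.7% at 2500 bp, and 23.9% and 19.1% in the highest-signal 50%, which turned the order. With a limit of 15 points 5436 shared peaks ranked higher and 4474 lower, and with 35 points 1088 and 707. With lists of equal length 2122 ranked higher and 2269 lower, which turned the order, and with ranks among shared peaks alone 2216 and 2089. Searching whole peaks in place of the central 200 bp kept the order of gained and lost for every motif except DR1, C/EBP and NRF1. The hexamer then stood at 34.3% of gained and 33.3% of shared peaks, and CTCF letters at 12.3% of lost and 13.3% of shared peaks.

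Genes near gained peaks that were higher in VSG RNA numbered 75 within 1 kb and 3 at an adjusted p under 0.1, and 89 to 129 with 1 mouse left out. Those lower numbered 92 without a filter on FPKM, 82 with Control and VSG mice alone in the fit, 81 with median-centred mice (added after the data were seen), 82 within 100 kb, 21 within 1 kb, 2 at an adjusted p under 0.1, and 23 to 111 with 1 mouse left out. Near lost peaks, genes higher numbered 158 with Control and VSG mice alone, 63 with median-centred mice, 45 within 1 kb, 0 at an adjusted p under 0.1 (100 at the unadjusted threshold, limma), and 64 to 84 with 1 mouse left out. Those lower numbered 47 within 1 kb, 3 at an adjusted p under 0.1, and 40 to 140 with 1 mouse left out. Over all genes, 48 were called with Control and VSG mice alone, and 0 to 10 with 1 mouse left out. Without Control mouse 1 limma called 0, with 389 higher and 128 lower at an unadjusted p under 0.05, without Control mouse 2 it called 0, with 359 and 101, without VSG mouse 1 10 and without VSG mouse 2 5. The cause of these differences was not tested. Genes with a net loss of 3 or more peaks were lower in 6.29 to 16.3% over the fits, against 1.05 to 5.27% of all genes. Genes with a net gain were higher in 5.61 to 13.6%, against 3.74 to 10.5%.

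The replicate numbers did not pair the mice, with correlations of the deviations of same-numbered mice of 0.106, 0.058 and 0.0291, and the replicate block gave 10 calls over all genes. Near gained peaks it gave 177 genes higher and 57 lower, and near lost peaks 97 and 94.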
